A study of Mus musculus with 7 samples.

Results

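The 9 genes described here carry out the loading of glutamate into synaptic vesicles, the formation of glutamate, and the uptake of glutamine into neurons. They were chosen by name and are 9 of the 24062 genes in the count tables. Slc17a6, Slc17a7 and Slc17a8 encode the vesicular glutamate transporters VGLUT2, VGLUT1 and VGLUT3. Gls2 encodes a glutaminase, Glud1 glutamate dehydrogenase, Got1 and Got2 the cytosolic and the mitochondrial aspartate aminotransferase, and Slc38a1 and Slc38a2 the glutamine transporters SNAT1 and SNAT2.

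Neurons that release glutamate depend on a cycle shared with astrocytes. Glutamate taken up by astrocytes is turned into glutamine by glutamine synthetase, glutamine returns to neurons through system A and system N carriers, and glutaminase turns it back into glutamate, which a vesicular transporter then concentrates in vesicles. In the adult brain VGLUT1 is known mainly from cortex and hippocampus and VGLUT2 from thalamus, hypothalamus and brainstem, so the VGLUT that a neuron transcribes is a common label of where it comes from.

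The samples came from a Patch-seq experiment in which neurons of the medial preoptic area, a hypothalamic region that controls body temperature, were recorded in brain slices and their contents then drawn into the recording pipette. The mice carried the Esr1-ZsGreen reporter, also written ERα-ZsGreen, in which ZsGreen fluorescence marks cells with an active gene for estrogen receptor alpha; per the methods they were females 10 to 14 weeks old. All samples were ZsGreen positive, all slices were warmed by 5 °C during recording, and each sample pooled 2 neurons with a similar response. The 4 temperature-responsive samples (TR, titled sensitive) held neurons labelled as responsive to the warming by their firing rate and the 3 non-responsive samples (NR) neurons labelled as not responsive. The study states the firing-rate criterion differently in its results and its methods, so which one set the labels is not known. The labels do not say from how many mice the neurons came, so the p-values below measure only the spread between these samples, which may be partly technical. A pool of 2 neurons also cannot tell fewer cells expressing a gene from less RNA per cell.

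Assigned reads per sample ran from 1914497 to 2814360 in TR and from 3309361 to 5125280 in NR, and genes with at least 1 read from 19852 to 21177 in TR and from 17818 to 19820 in NR, so the shallower group had more genes detected. Levels are given as CPM, the counts of a gene relative to the library total after scaling by the trimmed mean of M-values (TMM), with the SD over samples. A count of 3, taken as the floor of detection, was worth 0.564 to 1.62 CPM. Floors cover counting error only. The 7 preoptic markers summed to 184 to 216 CPM in TR and 185 to 219 CPM in NR. Pgr, Nts and Gal made up most of this and were present in every sample, Esr1, the reporter's own gene, stood at 3.57 to 11.3 CPM, and Hmx3 was at 0 in some samples. Markers of other cells and regions were present in every sample. The 8 genes of a list for excitatory neurons of cortex and hippocampus summed to 1080 to 1410 CPM in TR and 1290 to 1460 CPM in NR, and the 9 astrocyte genes to 2860 to 3220 CPM and 2530 to 2970 CPM. The lists that did not overlap between the groups were both higher in TR: the 5 endothelial genes, at 65.7 to 174 CPM against 15.2 to 41.6 CPM (4 called higher), and the 3 GABAergic genes, at 873 to 1400 CPM against 775 to 843 CPM (1 called higher). Of all genes tested 15.1% were called higher in TR (edgeR, adjusted p under 0.05), and 35.4% had CPM that did not overlap between the groups. The GABAergic list is too short to set against these shares. The GABAergic sum was mostly Gad1 and Gad2. Slc32a1 of that list overlapped widely, at 34.9 ± 9.79 CPM in TR and 35 ± 4.04 in NR (adjusted p = 0.992 in edgeR). The libraries therefore held marker transcripts of more kinds of cells than the label names. Their part in the levels below was not tested.

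All 9 genes passed the count filter, and 2 of them differed between the groups. Glud1 was higher in TR and Got2 was lower, each by less than 1.5-fold, at an adjusted p under 0.05 in edgeR's quasi-likelihood test. Of all 14407 genes tested, 30% were called, 15.1% higher and 14.9% lower, so 2 of 9 is no more than the background. Without TR replicate 1, 1 of the 9 was called, Got2, beside 27.5% of all genes, and DESeq2 called 1 of the 9, Glud1, beside 26.4%. The median log2 fold change (TR minus NR) of the 9 genes was -0.0076, against 0.0070 over all genes tested. Per kilobase of annotated exon (RPKM), the levels in TR stood in the order Got1 (118 ± 17.2, SD, n = 4), Glud1 (82.3 ± 2.94), Slc17a6 (51.7 ± 9.51), Slc17a7 (43.7 ± 5.78), Slc38a2 (30.7 ± 7.80), Gls2 (9.90 ± 1.69), Got2 (9.57 ± 1.5), Slc38a1 (8.65 ± 0.83) and Slc17a8 (1.75 ± 1.07). The neighbours Slc17a6 and Slc17a7, and the run Gls2, Got2 and Slc38a1, differed by less than the larger of their SDs. In NR the order was the same except that Slc17a6 and Slc17a7 were level, at 52.1 ± 3.96 and 52.1 ± 4.27 (SD, n = 3). The order depended in part on the length used. Per kilobase of the longest transcript, Slc38a1 (20.5) stood above Got2 (18.2) and Gls2 (13.4) in TR.

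**Figure D1:**
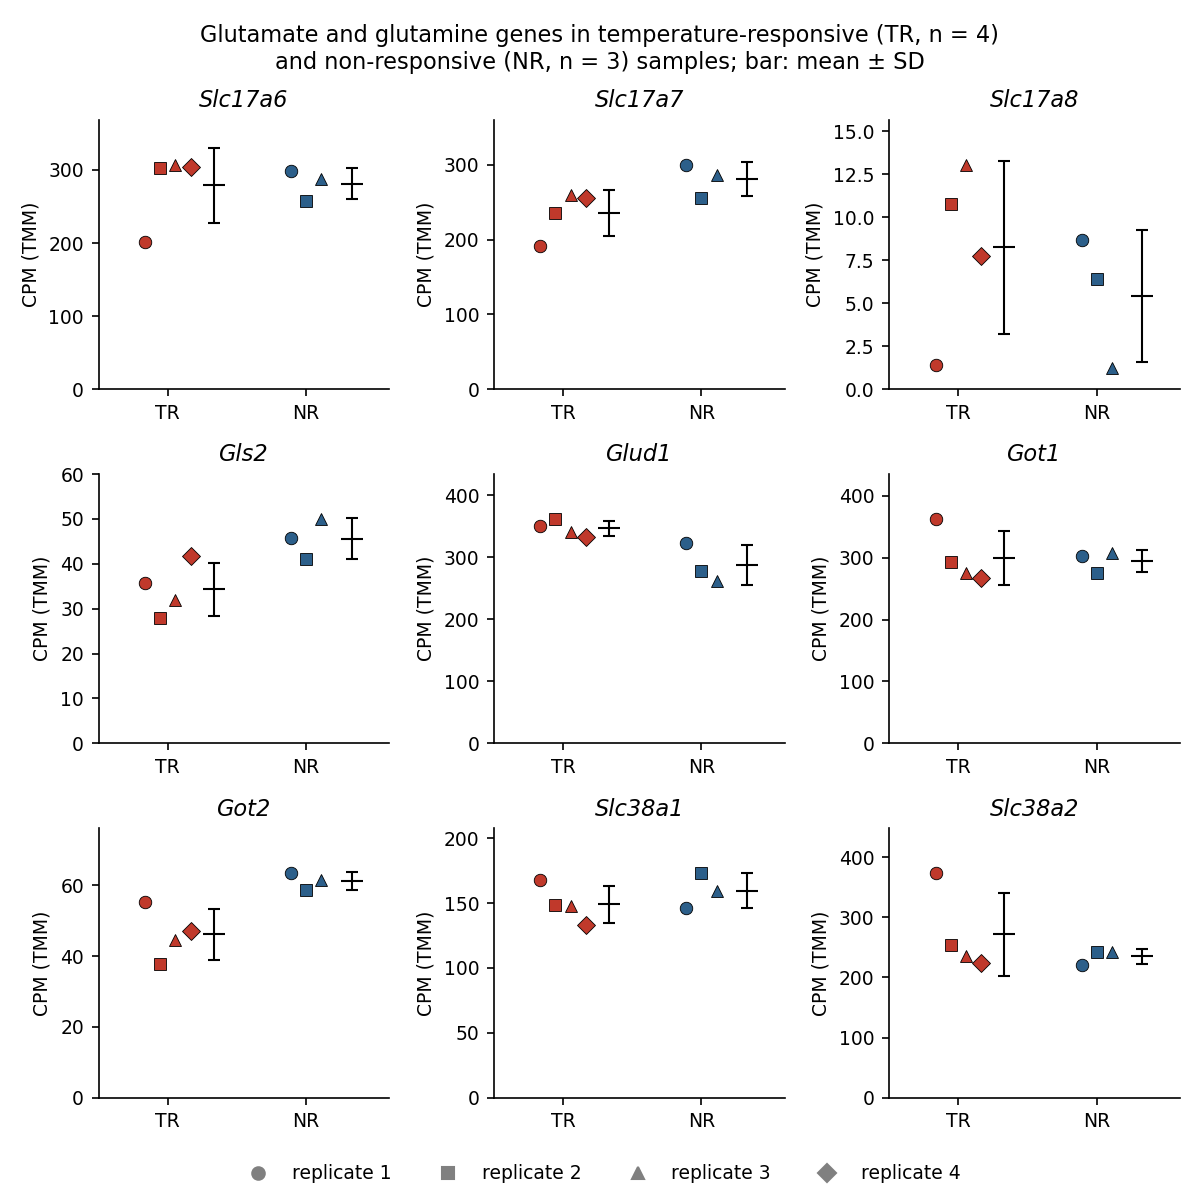
CPM of each of the 9 genes on the y axis (each panel has its own scale, starting at 0) in every TR (red, n = 4) and NR (blue, n = 3) sample; marker shapes give the replicate number and the bar beside each group is the mean ± SD. The groups do not overlap for Glud1 and Got2, and TR replicate 1 stands apart from the other TR samples for Slc17a6, Got1 and Slc38a2.

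The 3 vesicular transporters are near relatives whose reads have to be told apart for the levels to mean anything, so the stretch of coding sequence in which the 2 abundant ones are most alike is shown. Each is read from exon 2 of the longest coding transcript in the GENCODE M21 annotation of GRCm38 (the mm10 assembly), 5′ to 3′ along the gene. Capitals mark the longest run of bases that Slc17a6 and Slc17a7 share, 21 bases, and in Slc17a8 the 18 bases of it that are the same. Slc17a6 lies at chr7:51625442-51625502 on the plus strand, Slc17a7 at chr7:45168876-45168936 on the plus strand and Slc17a8 at chr10:89606608-89606668 on the minus strand.
Slc17a6: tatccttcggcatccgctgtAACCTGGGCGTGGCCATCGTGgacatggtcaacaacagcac
Slc17a7: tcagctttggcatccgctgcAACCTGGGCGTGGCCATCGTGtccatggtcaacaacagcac
Slc17a8: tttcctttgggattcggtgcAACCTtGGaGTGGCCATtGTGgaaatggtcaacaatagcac
Over these 61 bases Slc17a7 matched Slc17a6 at 54 and Slc17a8 at 50. No window of 50 bases in the transcript of Slc17a6 or Slc17a7 occurred in the transcript of any other annotated gene, and for Slc17a8 1.52% of windows did. A read of that length can thus be assigned to Slc17a6 or Slc17a7 without sharing.

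Slc17a6 (ENSMUSG00000030500, chr7:51622006-51671119, plus strand), the transporter known from glutamate neurons of the hypothalamus, stood at 202, 302.5, 307.5 and 304 CPM in TR replicates 1 to 4. In NR replicates 1 to 3 it stood at 298, 257 and 288 CPM. Of the TR samples 3 lay together just above the highest NR sample and replicate 1 lay below all others, so the groups overlapped. The means were 279 ± 51.4 CPM (SD, n = 4) in TR and 281 ± 21.4 (n = 3) in NR, with a log2 fold change of -0.01 ± 0.119 (SE; 95% interval -0.254 to 0.239) that did not pass edgeR's test (adjusted p = 0.97). Without TR replicate 1 the mean of TR was 305 ± 2.53 CPM, the groups no longer overlapped, and the log2 fold change was 0.11 (adjusted p = 0.391 in edgeR). With all 7 samples the groups did not overlap for 35.4% of all genes tested, and that share was not computed without TR replicate 1. Without an offset or covariate the group difference of Slc17a6 was close to 0. Its sign also turned without NR replicate 1 (0.038) or NR replicate 3 (0.010). The difference lay further below 0 with an offset for GC content (-0.21) or a covariate for genes detected (-0.25). A replicate block with the GC offset gave -0.27. None of these fits called it.

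Slc17a7 (ENSMUSG00000070570, chr7:45163949-45176142, plus strand), the transporter known mainly from cortex and hippocampus, was present in every sample at a level per kilobase near that of Slc17a6. TR replicates 1 to 4 had 192, 236, 259.5 and 256 CPM. NR replicates 1 to 3 had 300.4, 255.5 and 287 CPM. The highest TR samples reached the lowest NR sample, so the groups overlapped slightly, and TR replicate 1 was again the lowest of the 7. Mean levels were 236 ± 31.2 CPM in TR and 281 ± 23.0 in NR, with a log2 fold change of -0.25 ± 0.105 (SE; 95% interval -0.465 to -0.03) and an adjusted p of 0.077 in edgeR, which missed the threshold. Without TR replicate 1 it was -0.17 (adjusted p = 0.201 in edgeR). Scaling by library size alone removed the overlap and gave -0.30 (adjusted p = 0.0282 in edgeR). The share of all genes without overlap under that scaling was not computed. The log2 fold change of Slc17a7 was below 0 in all 20 alternatives (-0.41 to -0.15) and passed under 4 of them. With an offset for GC content it was -0.16 (adjusted p = 0.221 in edgeR). In TR replicate 1, where both transporters were lowest, the excitatory list of cortex and hippocampus was also at its lowest (1077 CPM, against 1293 to 1459 in the other 6 samples) and the GABAergic markers Gad1, Gad2 and Slc32a1 at their highest (1398 CPM summed, against 775 to 1023). Tbr1, Emx1 and Rasgrf2 of the excitatory list were not at their lowest there. The oligodendrocyte (4106 CPM), astrocyte (3218 CPM) and neuron (3127 CPM) sums were also highest in that sample. Its preoptic (183.9 CPM) and serotonergic (2.32 CPM) sums were the lowest of all samples. Whether the makeup of that pool sets the level of the transporters was not tested.

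Slc17a8 (ENSMUSG00000019935, chr10:89574020-89621253, minus strand), found in scattered neurons that mostly release another transmitter as well, was near the limit of detection in some samples. Its counts were 3, 20, 36 and 22 in TR and 29, 34 and 6 in NR. On the CPM scale this was 1.39, 10.8, 13.1 and 7.73 in TR and 8.69, 6.40 and 1.2 in NR. Each group held a sample with next to no reads, and the ranges overlapped, with TR replicates 2 and 3 above the highest NR sample. The log2 fold change of 0.66 ± 0.582 (SE; 95% interval -0.582 to 1.89) did not pass edgeR's test (adjusted p = 0.424), and the interval reaches from a modest decrease to an increase of more than 2-fold. On leaving out 1 sample at a time it ran from 0.16 without NR replicate 3 to 1.11 without NR replicate 1 and was 0.99 without TR replicate 1, and none of these fits called it.

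Summed over the family, vesicular glutamate transporter RPKM was 73.3, 102, 108 and 105 in TR and 113, 96.4 and 107 in NR. Apart from TR replicate 1, the samples of both groups lay in the same range. The means were 97.1 ± 16.1 in TR and 105 ± 8.31 in NR, a log2 ratio of -0.12 that became -0.0026 without TR replicate 1. Slc17a6 made up 51.1, 54.9, 52.8 and 53.4% of the sum in TR and 49.0, 49.4 and 50% in NR. Its share was thus higher in every TR sample than in any NR sample, including TR replicate 1, by 3.58 percentage points on average (53.0 ± 1.57% against 49.5 ± 0.503%). Slc17a8 made up 0.238 to 2.57%. When levels were computed per kilobase of the longest transcript, a choice made after seeing the data, the shares of Slc17a6 were 46.1 ± 1.77% and 42.4 ± 0.351%, so which of the 2 transporters was the more abundant depended on the length used. The difference, 3.71 points, could hardly change, because the length of a gene is the same in every sample.

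**Figure D2:**
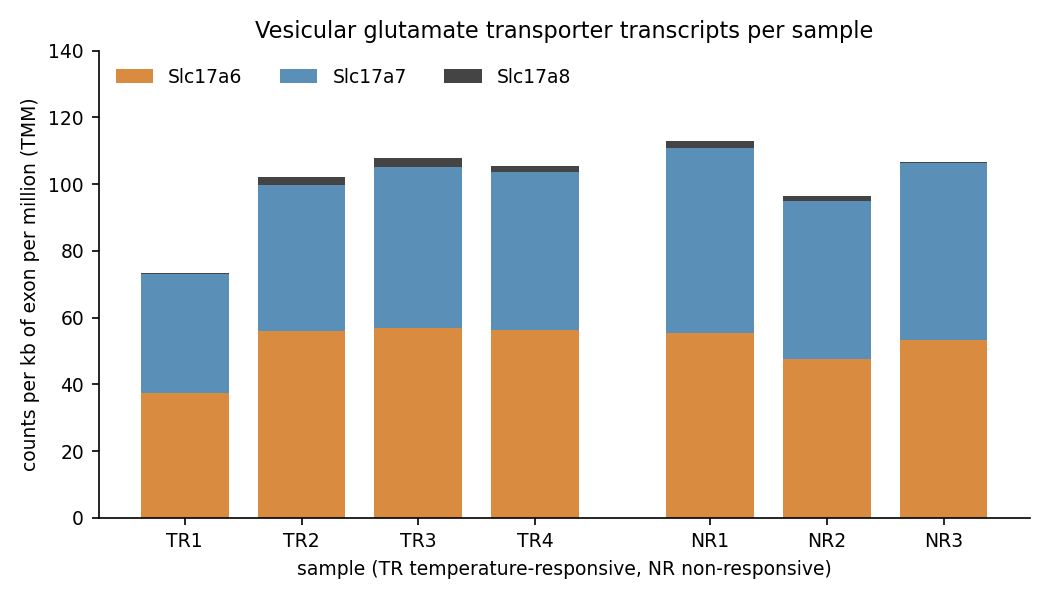
Stacked bars of RPKM (TMM-scaled CPM per kilobase of all annotated exons, y axis) of Slc17a6, Slc17a7 and Slc17a8 in each sample (x axis). The sum is 73.3 in TR replicate 1 and 96.4 to 113 in the other 6 samples, Slc17a6 and Slc17a7 make up nearly all of it in every sample, and Slc17a8 is a thin cap.

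The same contrast appears in the ratio of the 2 transcripts within a sample, which does not depend on the library total. The log2 ratio of Slc17a6 to Slc17a7 counts was 0.0749, 0.36, 0.244 and 0.247 in TR and -0.0101, 0.0095 and 0.0060 in NR. The NR samples had nearly equal counts of both, all TR samples had more Slc17a6, and the groups did not overlap (0.231 ± 0.117 against 0.0018 ± 0.0105, a difference of 0.23, and 0.282 without TR replicate 1). Over all pairs of tested genes with a mean of at least 100 counts, 43.2% had ratios that did not overlap between the groups, so this separation is common in these data. Slc17a6 and Slc17a7 also differ in base composition, with 42.9% and 56.6% GC in their transcripts, and across the 13745 genes with a GC value the log2 fold change fell with GC (Spearman's rho = -0.342, a description across genes, which are not independent). Taken between the edgeR log2 fold changes of the 2 genes, the difference was 0.24. With an offset for GC content, a choice added after seeing the data, it was -0.0483, near 0 and of the other sign. Base composition and group cannot be told apart for this ratio.

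Gls2 (ENSMUSG00000044005, chr10:128194457-128210004, plus strand) encodes the liver-type glutaminase. It stood at 35.8, 28, 31.9 and 41.8 CPM in TR and at 45.8, 41.0 and 50.04 CPM in NR. Most TR samples lay below the NR samples, but TR replicate 4 lay above NR replicate 2. The means were 34.4 ± 5.88 and 45.6 ± 4.52 CPM, with a log2 fold change of -0.40 ± 0.157 (SE; 95% interval -0.718 to -0.0736) that missed the threshold in edgeR (adjusted p = 0.0572). It passed under 4 of 20 alternatives and was below 0 in all of them (-0.51 to -0.31). Of its exon bases 2.79% overlapped Spryd4 on the opposite strand, and whether the counting used strand is not stated.

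Glud1 (ENSMUSG00000021794, chr14:34310727-34345265, plus strand) encodes the mitochondrial enzyme that interconverts glutamate and alpha-ketoglutarate. It stood at 350.2, 362, 341 and 333 CPM in TR and at 323, 278 and 262 CPM in NR. Every TR sample was above every NR sample, which was so for 2 of the 9 genes in 1 direction or the other and for 35.4% of all genes tested (17.2% higher in TR, 18.2% lower). The means were 346 ± 12.4 and 288 ± 31.9 CPM, and the log2 fold change was 0.27 ± 0.0971 (SE; 95% interval 0.07 to 0.47; adjusted p = 0.0378 in edgeR). The call was close to the threshold: it was lost without TR replicate 1 (log2 fold change 0.26, adjusted p = 0.051 in edgeR), TR replicate 2 (0.0933), TR replicate 3 (0.0661), NR replicate 2 (0.138) or NR replicate 3 (0.214), and with a GC offset (0.20, adjusted p = 0.125 in edgeR), while the direction held in all 20 alternatives (0.10 to 0.36). Of the 50-base windows of its transcript 8.17% also occurred in other annotated genes, 4.3% in the pseudogene Glud-ps, which has no row in the count tables, so how such reads were counted is not known.

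Got1 (ENSMUSG00000025190, chr19:43499752-43524605, minus strand), the cytosolic aspartate aminotransferase, exchanges the amino group between aspartate and glutamate as part of the malate-aspartate shuttle. It had the highest level per kilobase of the 9 genes. CPM were 363, 292, 275.5 and 267 in TR and 302, 274.5 and 308 in NR. TR replicate 1 was the highest sample and the other TR samples lay within or below the range of NR. The log2 fold change was 0.02 ± 0.106 (SE; 95% interval -0.198 to 0.237; adjusted p = 0.909 in edgeR), and -0.09 (adjusted p = 0.502 in edgeR) without TR replicate 1.

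Got2 (ENSMUSG00000031672, chr8:95864134-95888547, minus strand), the mitochondrial partner of Got1, was the gene still called without TR replicate 1. Its levels were 55.3, 37.7, 44.6 and 47.1 CPM in TR and 63.5, 58.7 and 61.7 CPM in NR. All TR samples were below all NR samples, and replicate 1 was the TR sample closest to NR. The means were 46.2 ± 7.26 and 61.3 ± 2.43 CPM, a log2 fold change of -0.40 ± 0.139 (SE; 95% interval -0.688 to -0.117; adjusted p = 0.0301 in edgeR). Without TR replicate 1 it was -0.50 (adjusted p = 0.0129 in edgeR). Leaving out any of the other 6 samples ended the call (adjusted p = 0.0557 to 0.111 in edgeR), as did DESeq2 (0.0518) and the GC offset (log2 fold change -0.35, adjusted p = 0.0702 in edgeR), with the direction the same in all 20 alternatives (-0.50 to -0.28). Its reads are the least certain of the set. Of the 50-base windows of its transcript 47.16% occurred in other annotated genes. Of all windows 32.3% occurred in the processed pseudogene Got2-ps1 and 36.0% in the reverse complement of the lincRNA Gm10874, and these shares overlap. Neither gene has a row in the count tables, and 9.0% of the exon bases of Got2 overlapped Gm45760 on the opposite strand. How such reads were counted is not stated.

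Within samples, the log2 ratio of Got1 to Got2 was 2.71, 2.96, 2.63 and 2.50 in TR and 2.25, 2.23 and 2.32 in NR. Got1 had more counts than Got2 in every sample, and relatively more in every TR sample than in any NR sample (2.70 ± 0.192 against 2.27 ± 0.0503, a difference of 0.434). This difference was 0.429 without TR replicate 1. Taken between the edgeR log2 fold changes of the 2 genes it was 0.422, and 0.384 with the GC offset. The share of gene pairs with separated ratios, 43.2%, is the background for it too.

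Slc38a1 (ENSMUSG00000023169, chr15:96571418-96642913, minus strand) encodes SNAT1, a sodium-coupled glutamine transporter of neurons that is abundant in GABAergic cells. It stood at 168, 149, 147 and 133 CPM in TR and at 146, 173 and 159.5 CPM in NR, with wide overlap. The log2 fold change was -0.10 ± 0.101 (SE; 95% interval -0.312 to 0.104; adjusted p = 0.463 in edgeR). Slc38a2 (ENSMUSG00000022462, chr15:96687392-96699730, minus strand), which lies close by on the same strand, encodes SNAT2, a system A carrier whose transcription rises when amino acids are scarce. It stood at 373, 254, 236 and 224 CPM in TR and at 221, 242 and 242 CPM in NR. TR replicate 1 was far above the other 6 samples, which lay close together. The log2 fold change of 0.20 ± 0.137 (SE; 95% interval -0.08 to 0.49; adjusted p = 0.276 in edgeR) was 0.007 (adjusted p = 0.965 in edgeR) without that sample, where the mean of TR was 238 ± 15.3 CPM against 235 ± 12.4 in NR.

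The log2 ratio of Slc38a1 to Slc38a2 was -1.16, -0.774, -0.677 and -0.753 in TR and -0.595, -0.484 and -0.604 in NR. Slc38a2 had more counts than Slc38a1 in every sample, and relatively more in every TR sample than in any NR sample. The means were -0.84 ± 0.214 and -0.561 ± 0.0665, a difference of -0.279 that shrank to -0.174 without TR replicate 1. All 3 ratios of relatives were separated by group, with and without that sample. With all 7 samples, 43.2% of gene pairs with a mean of at least 100 counts were separated too. The share of pairs without that sample was not computed. Taken between edgeR log2 fold changes, the differences were 0.24 for Slc17a6 to Slc17a7, 0.422 for Got1 to Got2 and -0.307 for Slc38a1 to Slc38a2. With the GC offset they were -0.0483, 0.384 and -0.216 in the same order.

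**Figure D3:**
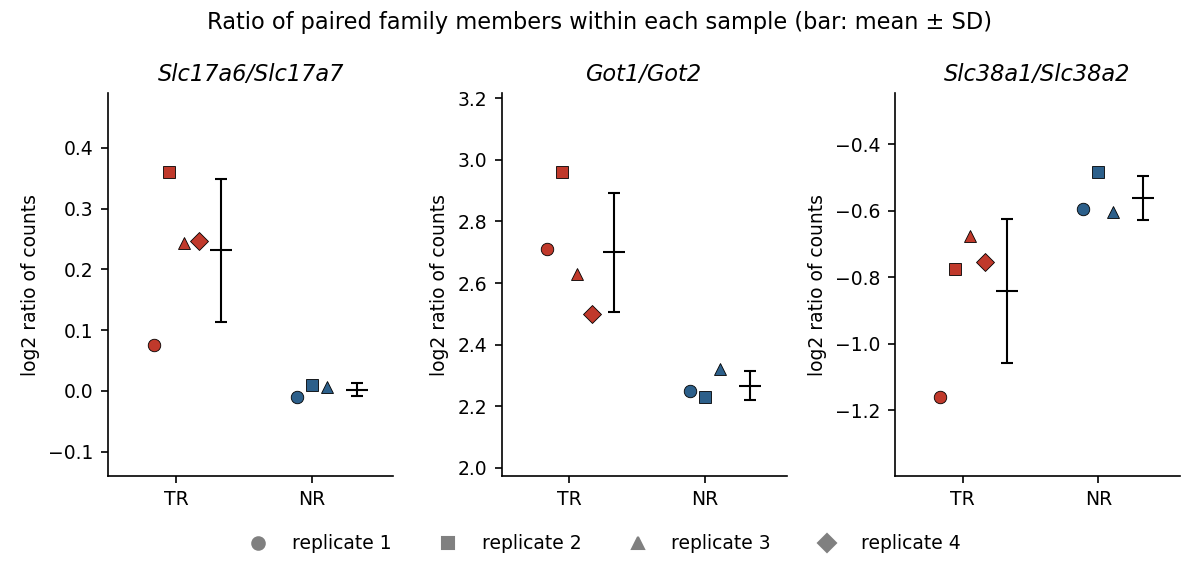
Log2 ratio of raw counts of 2 related genes within each sample (y axis, a separate range in each panel that does not start at 0) for TR (red, n = 4) and NR (blue, n = 3); bars are mean ± SD and marker shapes the replicate number. The groups do not overlap in any panel, and the 3 NR samples of Slc17a6/Slc17a7 lie between -0.0101 and 0.0095.

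The group differences of all 9 genes depended on how libraries were compared. With a covariate for genes detected, of which every TR sample had more than any NR sample, none of the 9 passed edgeR's adjusted threshold (2 had an unadjusted p under 0.05), and over all genes 0.00694% did. Genes detected and group go together in these 7 samples and cannot be told apart. With the GC offset none of the 9 passed either (2 had an unadjusted p under 0.05, and 24.6% of all genes were called).

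**Figure D4:**
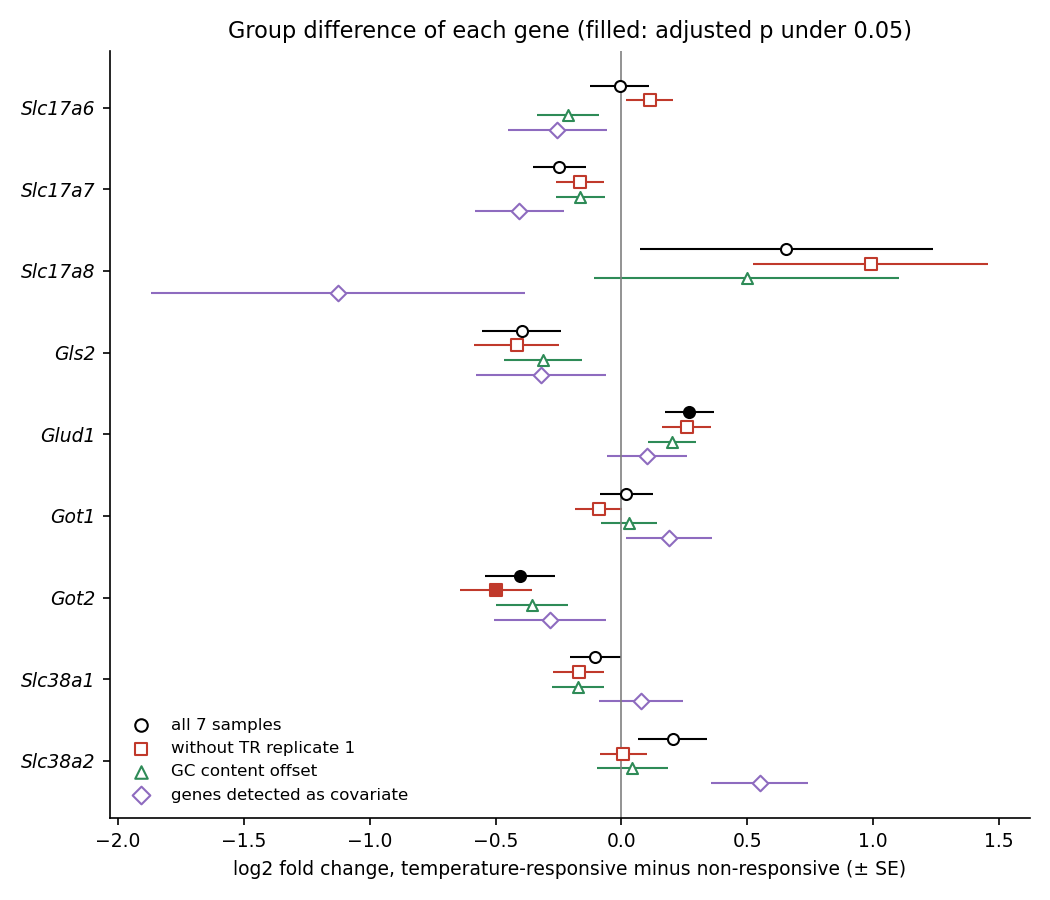
Log2 fold change of each gene (x axis, TR minus NR, ± SE) in edgeR with all 7 samples, without TR replicate 1, with a GC content offset and with genes detected as a covariate; filled symbols have an adjusted p under 0.05. Glud1 and Got2 are filled with all samples, Got2 alone without TR replicate 1, and no symbol is filled in the other 2 fits.

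Around these 9 genes, 58 further genes were listed in 6 groups, 4 of glutamate and glutamine handling, 1 of other SLC17 transporters and 1 of vesicle loading with other transmitters. The count filter left 49, of which 14 were called (28.6%, beside 30% of all genes), 7 higher and 7 lower in TR. DESeq2 gave 12 calls. Leaving out 1 sample gave 7 to 13: 13 without TR replicate 1, 9 without TR replicate 2 and 7 without NR replicate 3. The covariate for genes detected gave 0 in edgeR (6 at an unadjusted p under 0.05).

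Of the genes that make glutamine or carry it across membranes, 12 of 15 were tested, 1 was higher and 1 lower (median log2 fold change 0.02). Glul, glutamine synthetase, rose from 213 ± 25.7 CPM in NR to 264 ± 35.8 in TR (log2 fold change 0.31 ± 0.11, adjusted p = 0.0328 in edgeR), a call lost without TR replicate 1 (adjusted p = 0.107 in edgeR), TR replicate 2 (0.0542), TR replicate 3 (0.0686), NR replicate 2 (0.155) or NR replicate 3 (0.141). Slc3a2, the shared heavy chain of several amino acid exchangers, fell from 120 ± 16.0 to 71.1 ± 13.6 CPM (-0.75 ± 0.13, adjusted p = 0.000331 in edgeR) and was called in all 7 fits without 1 sample (adjusted p up to 0.00411 in edgeR). Slc38a3, the system N carrier through which astrocytes release glutamine, had 57.4 ± 13.0 and 50.9 ± 3.52 CPM and did not pass.

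Of the glutamate uptake genes, 6 of 7 were tested, 2 were higher and 0 lower (edgeR; median 0.10). Slc1a3, the astrocyte transporter GLAST, rose from 385 ± 49.2 to 524 ± 53.8 CPM (log2 fold change 0.45 ± 0.107, adjusted p = 0.00342 in edgeR), and Slc7a11, the cystine-glutamate exchanger, from 60.5 ± 11.9 to 78.2 ± 4.33 CPM (0.38 ± 0.132, adjusted p = 0.0319 in edgeR). Slc1a3 was called in all 7 fits without 1 sample (adjusted p up to 0.0463 in edgeR), whereas Slc7a11 lost its call without TR replicate 2 (0.0794), TR replicate 3 (0.0667), NR replicate 2 (0.1) or NR replicate 3 (0.186). Slc1a2, the astrocyte transporter GLT-1, had 701 ± 3.8 CPM in TR and 689 ± 49.4 in NR and did not pass. Glul, Slc1a2 and Slc1a3 are also in the astrocyte list. Of its 9 genes 4 were higher and 1 lower, beside 15.1% and 14.9% of all genes tested. Its summed level overlapped between the groups (2860 to 3220 CPM in TR and 2530 to 2970 in NR). Whether these changes lie in the recorded neurons or in astrocyte RNA taken up with them was not tested.

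Of the other enzymes that form or use glutamate, all 18 were tested, 2 were higher and 3 lower (median 0.02). Prodh, proline dehydrogenase, fell from 26.1 ± 6.21 to 15.6 ± 2.57 CPM (log2 fold change -0.73 ± 0.213, adjusted p = 0.0126 in edgeR). Asns, which forms asparagine and glutamate from aspartate and glutamine, fell from 134 ± 9.22 to 93.9 ± 8.20 CPM (-0.52 ± 0.104, adjusted p = 0.000916 in edgeR). Gfpt1, which takes an amino group from glutamine for hexosamine synthesis, rose from 107 ± 11.3 to 140 ± 10.6 CPM (0.40 ± 0.105, adjusted p = 0.0066 in edgeR). Without NR replicate 3, 1 gene of this list was called, Asns, which was called in all 7 fits without 1 sample (adjusted p up to 0.00911 in edgeR). Prodh then had an adjusted p of 0.0995 and Gfpt1 of 0.0565 in edgeR, and Prodh also lost its call without TR replicate 2 (0.0532).

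Of the mitochondrial glutamate carriers and malate-aspartate shuttle genes, all 7 were tested, 1 was higher and 2 lower (median -0.09). Slc25a22 and Slc25a18, both mitochondrial glutamate carriers, fell from 134 ± 13.3 to 89.0 ± 10.7 CPM (log2 fold change -0.58 ± 0.112, adjusted p = 0.000666 in edgeR) and from 78.8 ± 3.46 to 63.2 ± 7 CPM (-0.32 ± 0.121, adjusted p = 0.0497 in edgeR). Mdh1, the cytosolic malate dehydrogenase that works beside Got1, rose from 530 ± 94.4 to 730 ± 92.0 CPM (0.46 ± 0.119, adjusted p = 0.0054 in edgeR), whereas its mitochondrial counterpart Mdh2 had 293 ± 23.4 and 312 ± 12.2 CPM and did not pass. Slc25a22 was called in all 7 fits without 1 sample (adjusted p up to 0.00823 in edgeR). Mdh1 lost its call without NR replicate 2 (adjusted p = 0.0558 in edgeR), and Slc25a18, the nearest to the threshold, lost it without any sample other than TR replicate 1 (0.0568 to 0.149) and was called in 4 of 20 alternatives.

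Of the 6 other SLC17 transporters only Slc17a5, the lysosomal sialic acid transporter sialin, passed the filter, and it was not called (log2 fold change -0.30 ± 0.175, adjusted p = 0.195 in edgeR). Slc17a1, Slc17a2, Slc17a3, Slc17a4 and Slc17a9 had at most 16 counts in any sample. Of the 5 genes that load vesicles with other transmitters or amino acids, all were tested. Slc18a2, the vesicular monoamine transporter, was higher (0.74 ± 0.137, adjusted p = 0.000524 in edgeR) and Slc6a17, a vesicular transporter of neutral amino acids, was lower, at 103 ± 2.91 against 142 ± 6.32 CPM (-0.46 ± 0.0966, adjusted p = 0.00133 in edgeR). Both calls held in all 7 fits without 1 sample (adjusted p up to 0.00398 and 0.0103 in edgeR). Slc32a1, also in the GABAergic list, was not called (log2 fold change 0.0029 ± 0.18, adjusted p = 0.992 in edgeR).

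**Figure D5:**
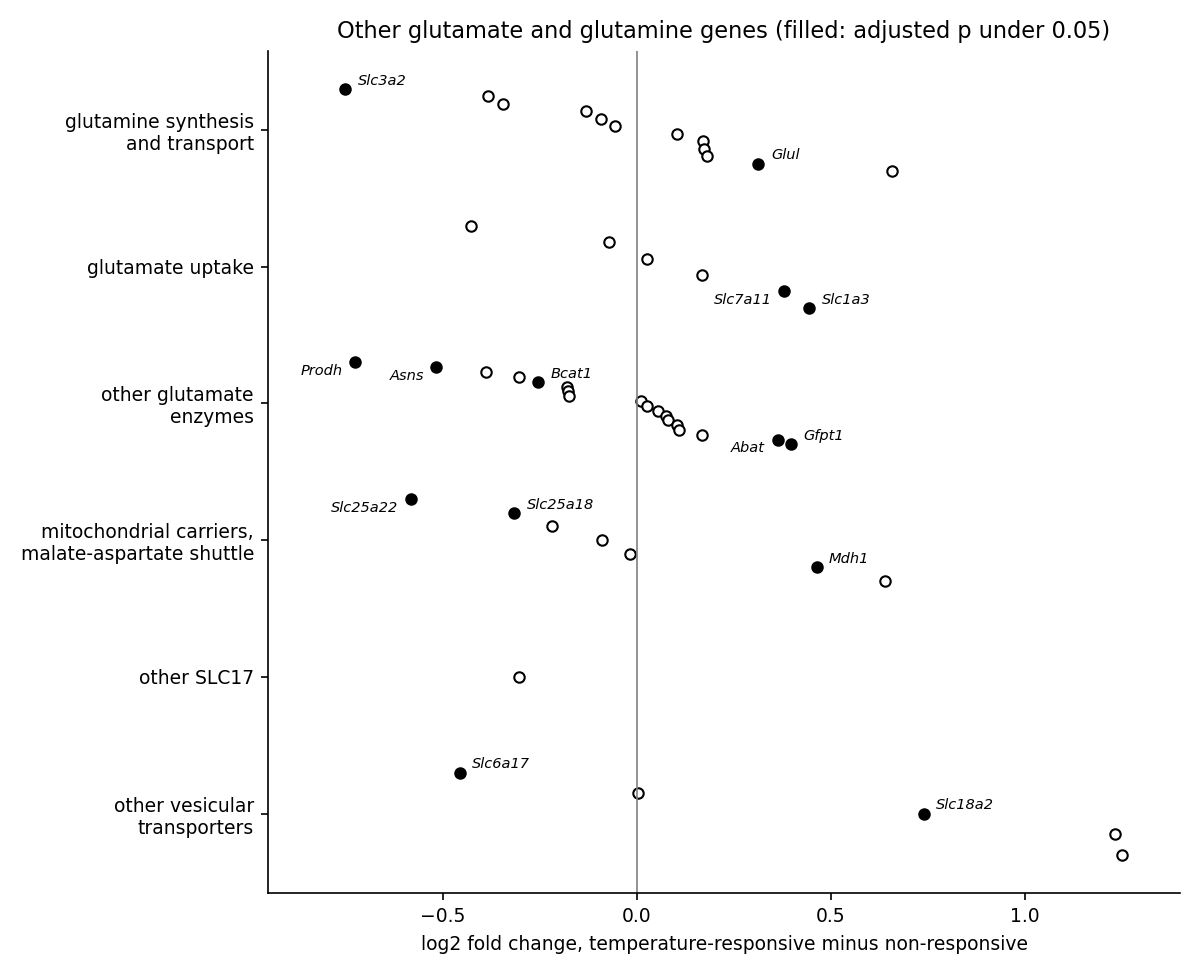
Log2 fold change (x axis, TR minus NR, edgeR) of the 49 tested genes of the 6 lists (rows); filled points have an adjusted p under 0.05 and are named. Called genes lie on both sides of 0, with 7 higher and 7 lower.

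The genes whose levels followed the 2 abundant vesicular transporters most closely over the 7 samples were sought among 7888 genes with a mean of at least 100 counts, by the root mean square distance of centred log2 CPM. For Slc17a6 these were Kmt2d (0.0403), Rap2b (0.0594), Zscan18 (0.0628), Auts2 (0.0679) and Prr14l (0.0733), against a median distance of 0.30 over all candidates. For Slc17a7 they were Camkv (0.041), Srcin1 (0.0429), Bbs7 (0.0456), Caly (0.0457) and Cnih2 (0.0488), against a median of 0.265. The patterns include the low TR replicate 1, and the points share library depth and base composition.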

How the data were processed

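The authors aligned reads to the mouse genome (mm10) with RNA STAR, removed PCR duplicates with RmDup and deposited counts per gene from htseq-count; the submitters' processing notes name FastQC 0.72, STAR 2.6.0 and HTSeq 0.9.1. The counts are whole reads, not normalised. The annotation, the strand setting and the treatment of reads that match several genes are not given in the sources used here.

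Here the counts of all 7 samples (4 TR, 3 NR, grouped by the responsiveness label) were fitted with edgeR 4.0.16 (R 4.3.3): a minimum of 10 counts in 3 or more samples, TMM factors, robust quasi-likelihood test, two-sided, Benjamini-Hochberg adjustment over all 14407 genes tested, threshold 0.05. A 95% interval is the log2 fold change ± its SE times the t quantile. Ratios, shares and summed levels were not tested. CPM were TMM-scaled, and RPKM were CPM per kilobase of exon. Gene models, GC content and sequences came from GENCODE M21 on GRCm38, which matched 94.5% of symbols. The code was tested on simulated data. Replicates of a group differed beyond sampling noise (chi-square divided by its degrees of freedom, 2.03 to 5.11), so none was counted as a duplicate.

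Alternatives were DESeq2 1.42.0, limma-voom (limma 3.58.1), other scalings and filters, downsampling, a genes-detected covariate, GC (mgcv 1.9.3) and length offsets, a replicate block, and leaving out each sample. The replicate block left out TR replicate 4, which has no NR sample of the same number. The replicate numbers did not pair samples. The 9 genes, the lists and the tests were chosen with earlier results of these data known. Named were all 9 genes; of each list the called genes up to the 3 with the largest absolute log2 fold change; and the 5 genes most like Slc17a6 and Slc17a7 over the samples. Slc38a3, Slc1a2, Mdh2, Slc32a1 and the SLC17 genes that were not called were added after their values were seen. 1 further gene of these lists is not reported here.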

Additional observations from a re-analysis of the deposited data

Results flagged for a closer look

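In the 4 TR samples, Slc17a6 had 1 value far from the rest: replicate 1 stood at 202 CPM and the other samples between 302.5 and 307.5 CPM, so the gap to the nearest sample was 0.953 of the whole range, above the critical value of Dixon's test for 4 samples. The summed RPKM of the 3 vesicular glutamate transporters was set apart in the same library, with a gap of 0.832 of the range (73.3 against 102 to 108). The sum contains Slc17a6, so these are not independent. They were 2 of 13 values checked, and chance alone singles out about 1 group in 20. The NR group, with 3 samples, was not checked.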

How the results depend on the processing

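Among the 9 genes 2 passed the threshold; 1 did so with DESeq2 or upper quartile scaling, 4 with the replicate block (1 higher, 3 lower), 3 by library size or with all genes of at least 1 count (0 higher, 3 lower), 2 with the length offset (0 higher, 2 lower), 0 with the genes-detected covariate, the GC offset, or the replicate block with GC offset, and 0 to 2 on leaving out 1 sample. Over all genes 4327 passed, against 1 with the covariate, 2616 with the replicate block and GC offset, 4120 with the replicate block alone, and 2620 to 4583 without 1 sample. The share called higher was 50.3%, and 62.1% with upper quartile scaling, 40.8% by library size, 36.8% with the GC offset and 40.4% with the length offset. Upper quartile scaling moved the median log2 fold change to 0.0737 and library size to -0.0519. Same-numbered TR and NR samples deviated together with r = -0.128, -0.0618 and 0.0316, so the numbers were not taken as pairs, and the block's calls are no stronger evidence. The block fits also left out TR replicate 4, so their counts rest on fewer samples.

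The log2 fold change of Slc17a6 turned positive with upper quartile scaling (0.062), with a minimum of 10 counts throughout (0.018) and on leaving out some samples (-0.067 to 0.11). Its lowest value, -0.27, came with the replicate block and GC offset. The log2 fold change of Got1 turned negative by library size (-0.043), with all genes of at least 1 count (-0.070) and on leaving out some samples (-0.091 to 0.079). The covariate turned Slc17a8 to -1.13 and Slc38a1 to 0.078. None of these 4 genes was called in any setting. The difference between the log2 fold changes of Slc17a6 and Slc17a7 was 0.24, and -0.0483 with the GC offset. For the other changes the cause was not tested. Depth limits Slc17a8 most, at 3 to 36 counts per sample.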
